A study of Mus musculus with 10 samples.

Results

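The comparison described here covers 1 day of development in mouse embryonic pancreas labelled Fgf9 -/-: the 2 pools collected at embryonic day 14.5 (E14.5) were set against the 2 pools collected at E13.5, across every gene with enough reads to test. These 4 libraries, chosen by their stage and genotype labels, are all the null-labelled libraries among the 10 of the series, and 18898 of the 54532 genes in the count table were tested. The null allele carries a LacZ cassette in the Fgf9 locus in mice kept on a C57BL/6J background. The E13.5 null-labelled pools held 7 and 6 pancreata and the E14.5 null-labelled pools 4 and 3. The other 6 libraries are littermate control pools that mix Fgf9 +/+ and Fgf9 +/- pancreata. They held 12, 7 and 12 pancreata at E13.5 and 8, 7 and 6 at E14.5. Poly(A) RNA of whole dissected pancreata was sequenced, so each value averages all cell types of a pool, and fewer cells of a type cannot be told apart from less RNA per cell. Whether the pools of 1 group were taken from different litters is not stated, and the tests can only weigh differences against how much these pools varied.

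At this age the pancreatic epithelium passes through what is called the secondary transition: tip cells start to make digestive enzymes, trunk cells give rise to ducts and to endocrine cells, and insulin-producing beta cells appear in numbers. The surrounding mesenchyme lays down collagens and feeds the epithelium with growth factors. FGF9 is a secreted fibroblast growth factor that acts between epithelium, mesothelium and mesenchyme in several developing organs, and in parallel the blood switches from primitive red cells with embryonic globins to definitive red cells with adult globins.

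The libraries held 17736769 to 22798257 counts in the null-labelled pools and 18321734 to 21082589 in the control pools, and mitochondrial transcripts took 2.3% to 3.39% of counts in each. Fgf9 itself was counted in every null-labelled pool, at 5.57 and 7.66 CPM, counts scaled to the total of the library, at E13.5 and at 11.7 and 6.14 CPM at E14.5. At E13.5 both null-labelled pools lay below the 3 control pools, at 11.3 to 18.4 CPM, and at E14.5 the labels overlapped, with control pools at 6.96 to 13.7 CPM. The whole-gene counts do not show whether reads came from the part of the gene that the cassette replaces. Barx1, a transcription factor of stomach and spleen mesenchyme, did separate the labels: it lay at 8.09 and 5.98 CPM at E13.5 and 10.7 and 13.8 CPM at E14.5 in null-labelled pools, and at 63.3 to 103 CPM in control pools. Tlx1, needed for spleen formation, was at or below 1.35 CPM in every null-labelled pool and at or above 9.58 CPM in every control pool. The pancreas markers Pdx1, Cpa1 and Neurog3 were present in all 4 null-labelled pools, at no less than 50.2 CPM.

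Over 1 day the null-labelled pancreas gained transcripts of exocrine enzymes, insulin and other islet hormones, a duct keratin and several matrix proteins, and lost an embryonic globin, the growth-associated chromatin protein Hmga2 and a cartilage-type collagen chain. A gene was called when its adjusted p from edgeR's quasi-likelihood test (Benjamini-Hochberg) was below 0.05. In all, 38 genes rose (0.201% of the genes tested) and 9 fell (0.0476%). Every called gene had no overlap between the stages, meaning that both pools of one stage lay above both of the other. Such separation alone was common: 4024 genes were above (21.3%) and 4031 below (21.3%) at E14.5. Before adjustment, 1430 genes rose and 1172 fell at p below 0.05. The number of calls depended on single libraries. Without E13.5 null-labelled pool 2, 0 of the 47 genes were called, and the lowest adjusted p from edgeR was 0.164. Without E13.5 null-labelled pool 1, 11 of the 47 were called. Leaving out E14.5 null-labelled pool 1 raised the counts to 140 and 41, and leaving out E14.5 control pool 1, which adds to the common estimate of spread, raised them to 199 and 67. Leaving out any other single library left 13 to 30 genes higher and 6 to 10 lower. All 47 kept their direction in each of these fits, which the lack of overlap between the stages made near certain. Krt19, Igfbp6, Dpt, Itih5, Rtl3, Hba-x, Col9a1 and Cartpt were called in 9 of the 10, each except the one without E13.5 null-labelled pool 2.

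**Figure D1:**
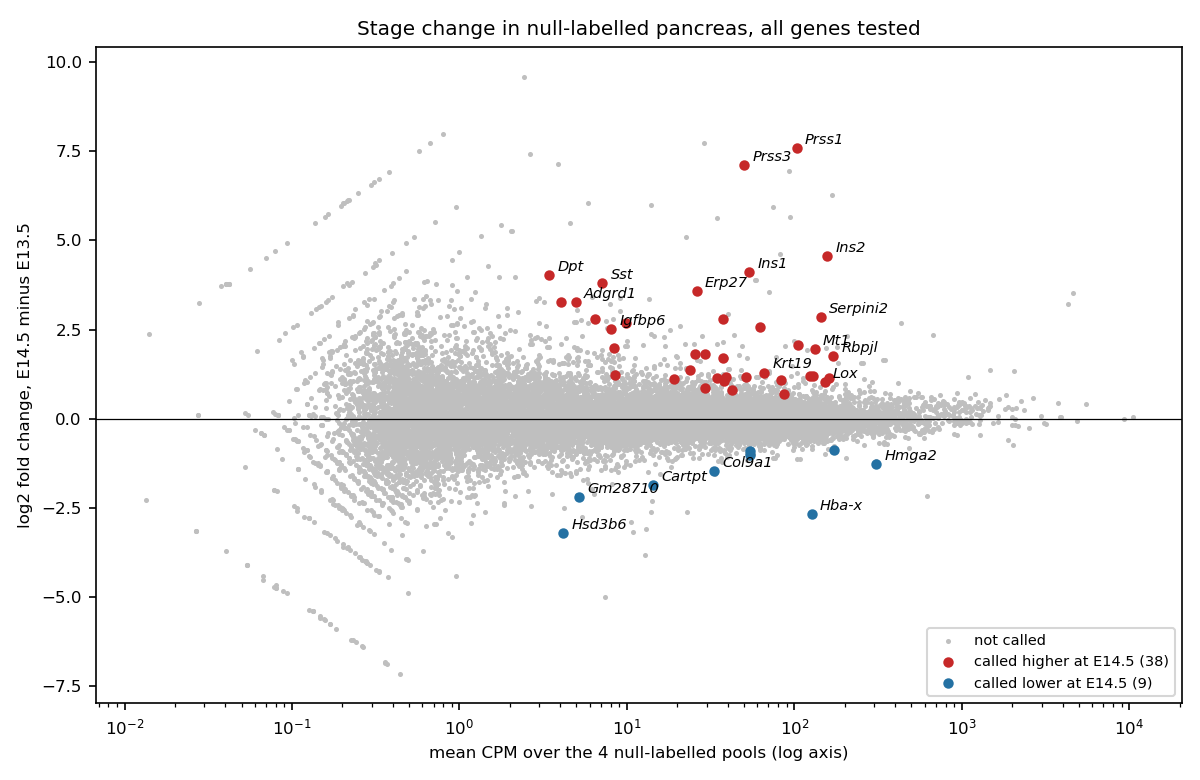
Each point is 1 of the 18898 genes tested, placed by its mean CPM over the 4 null-labelled pools (log axis) and its log2 fold change from E13.5 to E14.5. The 38 genes called higher (red) reach from Cycs at 0.71 to Prss1 at 7.58, and the 9 called lower (blue) from Rbms3 at -0.86 to Hsd3b6 at -3.21.

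The largest changes were in digestive enzymes. Trypsinogens are secreted as inactive precursors and become trypsin in the gut, and Spink1 inhibits trypsin that is activated too early inside the acinar cell. Prss3, a trypsinogen, was counted at 0.696 and 0.732 CPM in the E13.5 null-labelled pools and at 33.9 and 165 CPM in the E14.5 null-labelled pools. Prss1, another trypsinogen, stood at 0.803 and 1.29 CPM and then at 61 and 349 CPM. Both were near the detection limit at E13.5 and well above it in both pools at E14.5, where pool 2 was several times higher than pool 1. The log2 fold change of Prss3 was 7.11 (SE 1.11, adjusted p = 0.0252 by edgeR) and that of Prss1 7.58 (SE 1.32, adjusted p = 0.0422 by edgeR). Spink1 stood at 11.3 and 7.62 CPM and then at 51.3 and 79.9 CPM, so that all 4 pools were well covered and the E14.5 pools differed less from each other. Its log2 fold change was 2.80 (SE 0.40, adjusted p = 0.0147 by edgeR). The 3 calls were lost without either E13.5 null-labelled pool.

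The trypsinogen promoters are shown by a rule that took called genes of the list of acinar enzymes and secretory products. They were taken by smallest p where a window was available. The promoter of Ins1 was picked after its values were seen, because insulin was the most changed hormone. The windows run from 250 bases before to 50 bases after the gene start and come from RefSeq (GRCm38.p6). Of the 3 called genes of the list, which include the inhibitor Spink1, windows were available for 2, both trypsinogens. Prss3 lies at chr6:41377564-41377863 on the minus strand, Prss1 at chr6:41458680-41458979 on the plus strand, and Ins1 at chr19:52264047-52264346 on the plus strand. Capitals mark TATAAA and the E-box CANNTG, a motif bound by basic helix-loop-helix proteins such as Ptf1a and Neurod1, searched on both strands. No marked TATAAA overlaps a marked E-box.
Prss3: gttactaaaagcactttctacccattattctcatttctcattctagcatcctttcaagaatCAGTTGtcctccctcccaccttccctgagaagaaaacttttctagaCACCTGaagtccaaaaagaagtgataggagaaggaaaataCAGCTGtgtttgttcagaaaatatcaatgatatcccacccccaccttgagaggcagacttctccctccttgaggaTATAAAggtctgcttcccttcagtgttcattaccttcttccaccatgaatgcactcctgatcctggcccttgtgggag
Prss1: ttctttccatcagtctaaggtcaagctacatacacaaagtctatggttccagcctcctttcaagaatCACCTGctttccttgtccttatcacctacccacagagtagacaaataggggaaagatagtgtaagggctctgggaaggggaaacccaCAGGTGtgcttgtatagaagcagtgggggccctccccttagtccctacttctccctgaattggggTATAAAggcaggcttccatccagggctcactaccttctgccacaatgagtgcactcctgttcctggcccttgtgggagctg
Ins1: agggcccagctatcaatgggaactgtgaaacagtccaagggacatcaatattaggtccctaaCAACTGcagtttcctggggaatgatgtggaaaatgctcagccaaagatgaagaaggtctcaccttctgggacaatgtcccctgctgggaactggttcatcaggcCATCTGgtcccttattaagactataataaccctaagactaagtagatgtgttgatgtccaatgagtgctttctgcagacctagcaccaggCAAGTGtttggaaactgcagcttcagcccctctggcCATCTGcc
Both trypsinogen windows held TATAAA on the gene's own strand, beginning 28 bases before the start of Prss3 and 31 bases before that of Prss1. Of the 32851 windows available, 13.6% held TATAAA on either strand and 8.32% on the gene's own strand. Prss3 held 3 E-boxes, Prss1 held 2 and Ins1 held 4, and 72.3% of all windows held at least 1. The Ins1 window held no TATAAA. These matches describe the letters of the windows and were not tested as sites.

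Few members of the wider list of acinar enzymes and secretory products passed the test, although nearly all were higher in both E14.5 pools. Of 31 members tested, 3 were called higher and 0 lower, and 29 had no overlap with higher levels at E14.5. Over all genes tested, 0.201% were called higher and 21.3% had no overlap with higher levels at E14.5. The median log2 fold change of the list was 2.93, against 0.0017 over all genes tested. Ctrb1, a chymotrypsinogen and the member with the highest count, went from 619 and 863 CPM to 3832 and 13120 CPM, with a log2 fold change of 3.52 that missed the threshold (SE 0.69, adjusted p = 0.0646 by edgeR). Cpa1, a carboxypeptidase already made by early tip progenitors, was at 1017 and 1304 CPM and then at 1683 and 4171 CPM. Its log2 fold change of 1.33 had an SE of 0.41 (adjusted p = 0.18 by edgeR). Amylase was still scarce: Amy2a5 was at 0.0536 and 0.904 CPM and then at 1.56 and 6.44 CPM, and it was not called (log2 fold change 3.00, SE 1.13, adjusted p = 0.263 by edgeR).

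The number of called genes on the list of acinar enzymes and secretory products moved with the libraries kept. It was 0 without either E13.5 null-labelled pool, 1 or 2 without any E13.5 control pool, without E14.5 control pool 3 or without E14.5 null-labelled pool 2, and 21 without E14.5 null-labelled pool 1 or without E14.5 control pool 1. The median log2 fold change of the list ranged from 1.97 without E14.5 null-labelled pool 2 to 3.50 without E14.5 null-labelled pool 1. The trypsinogen genes are near-identical copies, and reads that match several of them may have been split or dropped in counting, so the level of any single one is uncertain. Trbc2, a T cell receptor constant gene, was also called higher, at 1.77 and 1.46 CPM and then at 7.53 and 14.9 CPM. In the GENCODE M21 annotation (mm10) it lies on chromosome 6, 21.7 kb from the trypsinogen Prss2. Trac, its partner constant gene, stood at 11.2 and 8.00 CPM and then at 10.9 and 9.49 CPM and was not called.

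Among regulators and secretory machinery of acinar cells, with 18 members tested, 4 were called higher, 0 lower, and 13 had no overlap with higher levels at E14.5. The shares over all genes tested were 0.201% called higher and 21.3% without overlap and higher. The median log2 fold change of the list was 0.83. Rbpjl, the acinar subunit of the PTF1 transcription complex, was counted at 85.6 and 70.8 CPM at E13.5 and at 172 and 353 CPM at E14.5. Its log2 fold change was 1.75 (SE 0.30, adjusted p = 0.0403 by edgeR). Serpini2, a pancreas-enriched serpin, rose from 37.9 and 32.2 CPM to 135 and 371 CPM (log2 fold change 2.85, SE 0.51, adjusted p = 0.0453 by edgeR). The endoplasmic reticulum protein Erp27 rose from 4.18 and 3.83 CPM to 26.9 and 69.3 CPM. Sec61b, a subunit of the channel that brings secretory proteins into the endoplasmic reticulum, rose from 83.5 and 67 CPM to 173 and 175 CPM, and there the E14.5 pools were nearly equal. Erp27 had a log2 fold change of 3.59 (adjusted p = 0.0411 by edgeR) and Sec61b one of 1.21 (adjusted p = 0.0326 by edgeR). Ptf1a, the basic helix-loop-helix subunit of PTF1, went from 7.61 and 10.3 CPM to 20.8 and 39.5 CPM and Bhlha15, a regulator of secretory cell shape, from 30 and 41.6 CPM to 99.6 and 226 CPM. Neither passed the test (adjusted p = 0.0992 and 0.0799 by edgeR). All 4 calls were lost without either E13.5 null-labelled pool, without E14.5 null-labelled pool 2, without E13.5 control pool 2 or 3 and without E14.5 control pool 3, and 1 was left without E13.5 control pool 1.

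The islet hormones insulin and somatostatin rose, and glucagon was not called. Of 27 members of the hormone-positive endocrine list, 4 were called higher and 0 lower, against 0.201% and 0.0476% of all genes tested. Ins2 was at 12.4 and 13.1 CPM at E13.5 and at 140 and 459 CPM at E14.5. The paralogous Ins1 was at 5.57 and 6.24 CPM and then at 58.6 and 145 CPM. Each E14.5 pool exceeded each E13.5 pool at least several times over, and pool 2 was the higher. The log2 fold change was 4.55 for Ins2 (SE 0.60, adjusted p = 0.0114 by edgeR) and 4.11 for Ins1 (SE 0.58, adjusted p = 0.0147 by edgeR); the near-identical copies can share reads. Iapp, the amyloid peptide secreted with insulin, rose from 18.7 and 17 CPM to 71.5 and 143 CPM (log2 fold change 2.58, SE 0.39, adjusted p = 0.0207 by edgeR). Sst, the hormone of delta cells, rose from 1.18 and 0.732 CPM to 8.04 and 18.5 CPM (log2 fold change 3.81, SE 0.63, adjusted p = 0.0353 by edgeR). Its E13.5 levels were near the detection limit. Gcg, the hormone of alpha cells and the most abundant of the hormone transcripts in CPM, stood at 559 and 767 CPM and then at 291 and 732 CPM. Its stages overlapped, and its log2 fold change of -0.37 (SE 0.36) had an adjusted p of 0.713 by edgeR.

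Leaving out either E13.5 null-labelled pool ended the 4 hormone calls, and 2 were left, those of Ins1 and Ins2, without E14.5 null-labelled pool 2 or without E13.5 control pool 3. The list had 8 calls without E14.5 null-labelled pool 1. The median of the hormone list was 0.55 with all libraries, -0.04 without E14.5 null-labelled pool 2 and 0.96 without E14.5 null-labelled pool 1. Endocrine progenitor genes did not pass the test in either direction, 0 of 18, with a median of -0.27 that was -0.10 without E14.5 null-labelled pool 1 and -0.45 without pool 2. Neurog3, the factor that starts the endocrine program, was at 84 and 114 CPM and then at 60.1 and 106 CPM (log2 fold change -0.25, SE 0.31, adjusted p = 0.787 by edgeR). Sox4 and Chgb, the most abundant members of that list in CPM, had log2 fold changes of -0.49 and -0.08.

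**Figure D2:**
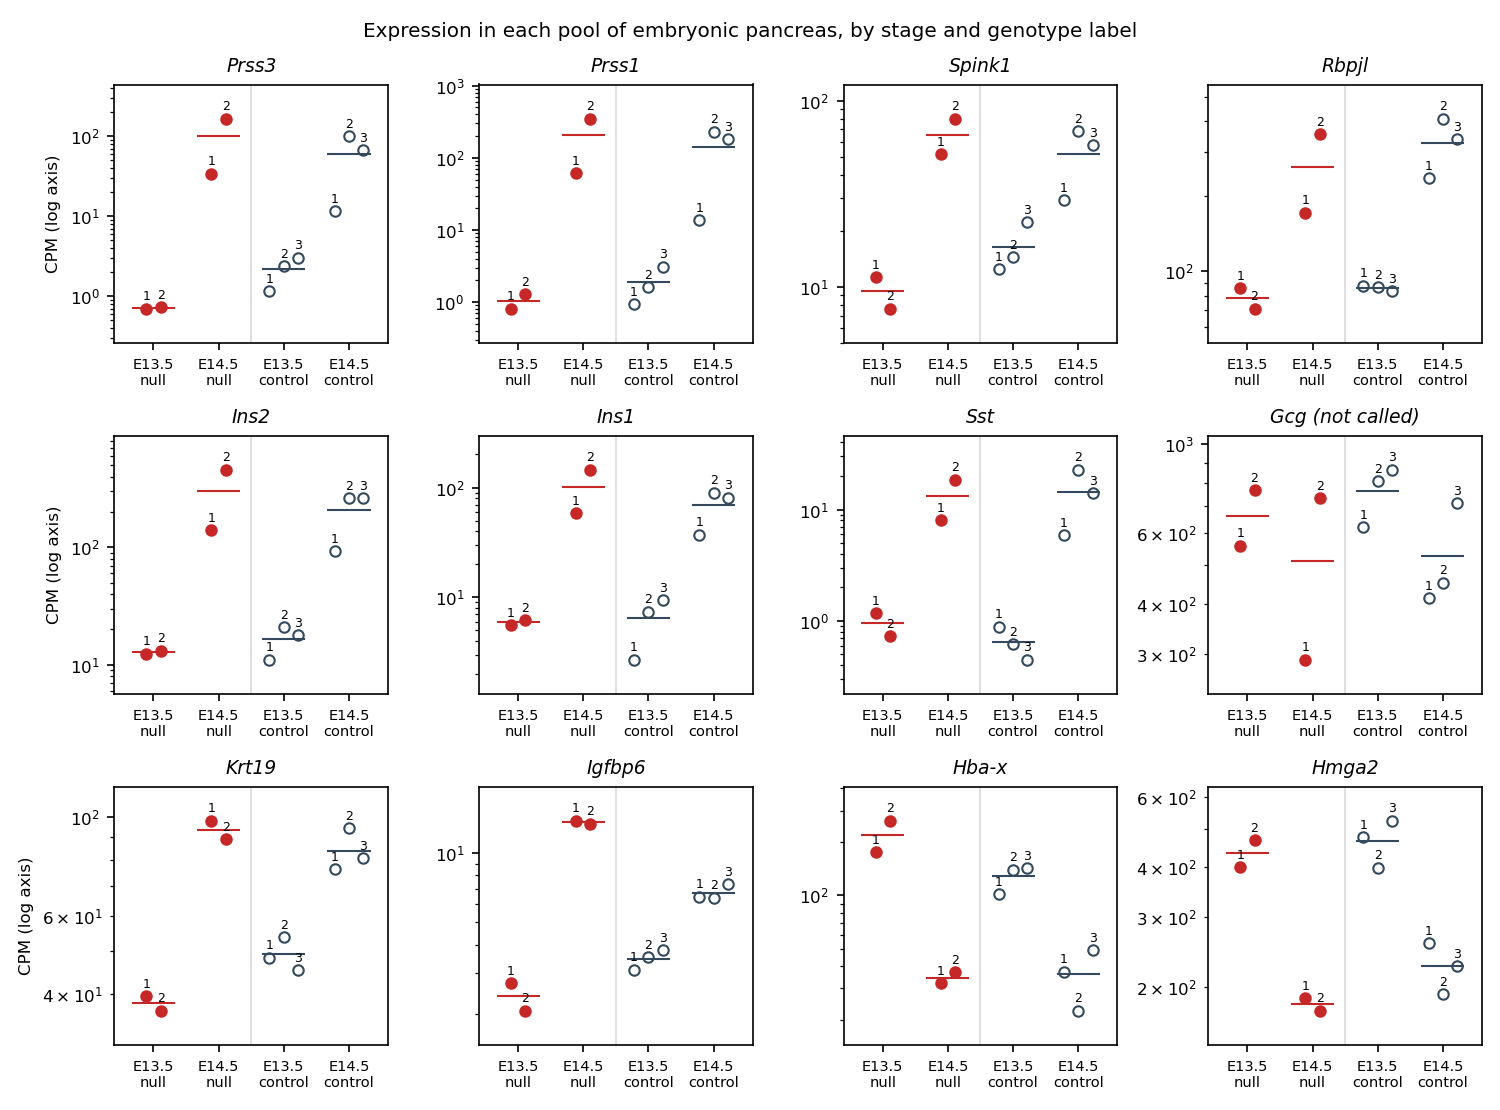
Each point is 1 pool, labelled with its replicate number, in CPM on a log axis; red filled points are null-labelled pools, open points control pools, and bars group means (n = 2 null-labelled and n = 3 control pools per stage). Prss3, Prss1, Ins2 and Ins1 are higher in pool 2 than in pool 1 of E14.5 null, Krt19 and Igfbp6 differ little between these pools, and Gcg overlaps between stages.

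Progenitor transcription factors were not called and 1 duct gene rose. None of the 16 progenitor transcription factors was called. Without overlap, 7 had lower and 2 higher levels at E14.5, against 21.3% of all genes tested in each direction. Pdx1, required for the pancreas to form, was at 64 and 79.4 CPM and then at 50.2 and 74.3 CPM. Sox9, which maintains progenitors, was at 154 and 252 CPM and then at 79.4 and 124 CPM, lower in both E14.5 pools but not called (log2 fold change -0.996, SE 0.30, adjusted p = 0.173 by edgeR). Of 15 duct genes, 1 was called higher, against 0.201% of all genes tested: Krt19, an intermediate filament keratin of duct and mesothelial cells. It rose from 39.5 and 36.7 CPM to 97.9 and 89 CPM, with pools of a stage nearly equal (log2 fold change 1.29, SE 0.15, adjusted p = 0.00867 by edgeR), and its call was lost only without E13.5 null-labelled pool 2 among the 10 libraries left out in turn. Notch genes, which hold trunk progenitors undifferentiated, had 0 of 14 called, and the most abundant, Notch2 and Notch1, had log2 fold changes of -0.76 and -0.20.

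Several of the genes that rose encode secreted, matrix or surface proteins. They were grouped after their values were seen, and the share of such genes over all genes tested was not counted. Igfbp6, which binds insulin-like growth factor II, went from 2.73 and 2.06 CPM to 13.8 and 13.4 CPM (log2 fold change 2.51, SE 0.28, adjusted p = 0.00867 by edgeR). Adgrd1, an adhesion receptor coupled to G proteins, went from 0.91 and 0.947 CPM to 9.15 and 8.79 CPM (log2 fold change 3.26, SE 0.38, adjusted p = 0.00867 by edgeR). Dpt, a matrix protein of fibroblasts, went from 0.589 and 0.215 CPM to 7.26 and 5.69 CPM (log2 fold change 4.02, SE 0.57, adjusted p = 0.0147 by edgeR). For these 3 genes both E14.5 pools stood close together and far from both E13.5 pools. Adgrd1 and Dpt were near the detection limit at E13.5. The collagen chains Col6a6 and Col5a3 rose by 1.69 and 1.97 on the log2 scale, and Lox, which cross-links collagen and elastin, rose by 1.02 from 111 and 89.5 CPM to 226 and 181 CPM. Itih5, a hyaluronan-associated protein, rose by 1.80, and Gas6, a ligand of the Axl and Mer receptors, by 1.10. Of the 20 genes in the fibroblast and matrix list Lox alone was called, against 0.201% of all genes tested called higher. Without overlap, 9 had higher and 1 had lower levels at E14.5, against 21.3% of all genes tested in each direction. The summed CPM of that list was 13730 and 11050 at E13.5 and 19990 and 13090 at E14.5. Its part in the matrix gene changes was not tested.

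Msln, the surface protein mesothelin, was the single call among 14 mesothelium genes. It rose from 0.589 and 0.904 CPM to 7.65 and 6.94 CPM (log2 fold change 3.27, SE 0.56, adjusted p = 0.0395 by edgeR). Its E13.5 levels were near the detection limit. Of the 14 genes, 7 had no overlap with higher levels at E14.5 and 0 with lower levels. Over all genes tested the share was 21.3% in each direction, and 0.201% were called higher. The median log2 fold change of the list was 0.34. That median was 0.53 without E14.5 null-labelled pool 2, 0.54 without E13.5 null-labelled pool 1 and 0.21 without E13.5 null-labelled pool 2. Mt1, a metal-binding metallothionein, rose by 1.95 on the log2 scale and Nupr1, a stress-responsive nuclear protein, by 2.06. When each of the 10 libraries was left out in turn, Mt1 and Nupr1 were called in 3 fits and Msln in 2. Rtl3, a gene derived from a retrotransposon, rose from 14.1 and 8.52 CPM to 41.2 and 38.3 CPM (log2 fold change 1.82, SE 0.22, adjusted p = 0.00875 by edgeR). The remaining called risers had log2 fold changes from 0.71 for Cycs, the electron carrier cytochrome c, to 2.69 for Rgs11, a regulator of G protein signalling.

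An embryonic globin fell. Hba-x, the zeta-type alpha globin of primitive red cells, fell from 176 and 263 CPM to 32 and 37 CPM (log2 fold change -2.67, SE 0.32, adjusted p = 0.00867 by edgeR). The other embryonic globins did not pass: Hbb-y was at 735 and 1298 CPM and then at 220 and 235 CPM (adjusted p = 0.0564 by edgeR), and Hbb-bh1 at 28.3 and 18.1 CPM and then at 3.24 and 2.25 CPM (adjusted p = 0.0501 by edgeR). All 3 were below in both E14.5 pools, as were 21.3% of all genes tested. Adult globins had 0 of 4 called. Hbb-bs was at 485 and 436 CPM and then at 517 and 880 CPM (log2 fold change 0.60, adjusted p = 0.492 by edgeR), and Hba-a1 overlapped between stages, with the caveat that Hba-a1 and Hba-a2 are near-identical copies. Of 15 other erythroid genes 0 were called, and Tfrc and Fech, the most abundant in CPM, had log2 fold changes of 0.27 and 0.11.

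Hmga2, a chromatin protein of proliferating embryonic cells and a target of the let-7 microRNA, fell from 399 and 468 CPM to 187 and 174 CPM (log2 fold change -1.26, SE 0.17, adjusted p = 0.013 by edgeR). It was the single call among 14 genes of the heterochronic and oncofetal list, against 0.0476% of all genes tested called lower. Of these 14, 8 had no overlap with lower levels at E14.5 and 1 with higher levels. The share over all genes tested was 21.3% in each direction. Lin28b, which blocks let-7 processing, was scarce, at 3.96 and 4.60 CPM and then at 3.63 and 1.90 CPM, and was not called. Col9a1, a collagen IX chain best known from cartilage, fell from 47.5 and 50.3 CPM to 17.4 and 18.2 CPM (log2 fold change -1.46, SE 0.18, adjusted p = 0.00875 by edgeR). Cartpt, the precursor of the CART neuropeptide and also made by islet cells, fell from 19.9 and 25.1 CPM to 5.25 and 7.19 CPM (log2 fold change -1.85, SE 0.23, adjusted p = 0.00875 by edgeR). Hsd3b6, a steroid-converting enzyme, fell from 6.53 and 8.48 CPM to 0.502 and 1.10 CPM (log2 fold change -3.21, SE 0.46, adjusted p = 0.0147 by edgeR). For each of these genes both E14.5 pools were low and both E13.5 pools high. Hsd3b6 was near the detection limit at E14.5. Gm28710, Lrrn1, Vill and Rbms3 completed the 9, with log2 fold changes from -2.20 to -0.86. Cell cycle genes were not called, 0 of 28 with a median of 0.01 that lay between -0.07 and 0.07 when single null-labelled pools were left out, and Mki67, a marker of cycling cells, stood at 624 and 530 CPM and then at 488 and 607 CPM.

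Signalling lists gave no calls. The counts were 0 of 14 for FGF feedback genes, 0 of 16 for FGF ligands and receptors, 0 of 22 for Wnt, 0 of 23 for BMP and TGF-beta, 0 of 12 for Hedgehog and 0 of 16 for retinoic acid. Their medians lay between -0.16 and 0.27, and each of these except that of retinoic acid changed sign when 1 null-labelled pool was left out. The Wnt median of 0.27 was -0.20 without E14.5 null-labelled pool 1, 0.47 without E14.5 null-labelled pool 2 and 0.12 without E13.5 null-labelled pool 2. Spry1, a feedback inhibitor induced by FGF signalling, was at 16.8 and 16.2 CPM and then at 19.1 and 19.7 CPM, and Fgfr2, the main epithelial FGF receptor, at 105 and 123 CPM and then at 71 and 93.1 CPM. Neither was called. Mesenchymal and stromal lists were likewise without calls: 0 of 9 spleen mesenchyme genes, 0 of 20 mesenchyme transcription factors, 0 of 16 smooth muscle and pericyte genes, 0 of 15 endothelial, 0 of 16 neural and glial, and 0 of 14 macrophage genes. Acta2, smooth muscle actin, was at 140 and 107 CPM and then at 246 and 131 CPM. The list for hypoxia and glycolysis had 0 of 16 called, and that for immediate early and stress genes 0 of 14. They had 11 and 7 members with no overlap and higher levels at E14.5, and 0 and 2 with lower levels. Over all genes tested the share was 21.3% in each direction. Medians of the 2 lists were 0.43 and 0.33. Jun and Hsph1, the most abundant immediate early and stress genes in CPM, were the 2 lower ones, with log2 fold changes of -0.32 and -0.40.

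The E14.5 null-labelled pools differed from each other more than the E13.5 pools did. Of 15452 genes with a mean of at least 1 CPM, 1382 differed by over 2-fold between the E14.5 pools and 825 between the E13.5 pools. Between the stages, 909 differed by over 2-fold from E13.5 pool 1 to E14.5 pool 1, and 1665 from E13.5 pool 2 to E14.5 pool 2. The E14.5 pools thus differed from each other in more genes than the pools numbered 1 did across the day. Summed acinar enzyme transcripts were 12140 CPM in E14.5 pool 1 and 38290 CPM in pool 2, against 3687 and 4412 CPM at E13.5. The E14.5 control pools showed a like range, with 10370 CPM in pool 1 and 38730 and 30160 CPM in pools 2 and 3. From pool 1 to pool 2 of E14.5 null, 29 of 31 acinar enzyme genes and 27 of 27 hormone-positive genes were higher, with median log2 differences of 1.78 and 1.08. Over all genes tested 9333 were higher in pool 2, and the median was -0.01. The 20 fibroblast and matrix genes were all lower in pool 2, with a median difference of -0.57. On the first principal component, which held 25.7% of the variance, the E13.5 null-labelled pools were at -44 and -41.9, E14.5 pool 1 at -11.4 and E14.5 pool 2 at 54.2. The second component held 17.6%, and there null-labelled pool 1 scored above pool 2 in both stages. The E13.5 scores were 28.3 against -16.1, the E14.5 scores 50.8 against 24.8.

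**Figure D3:**
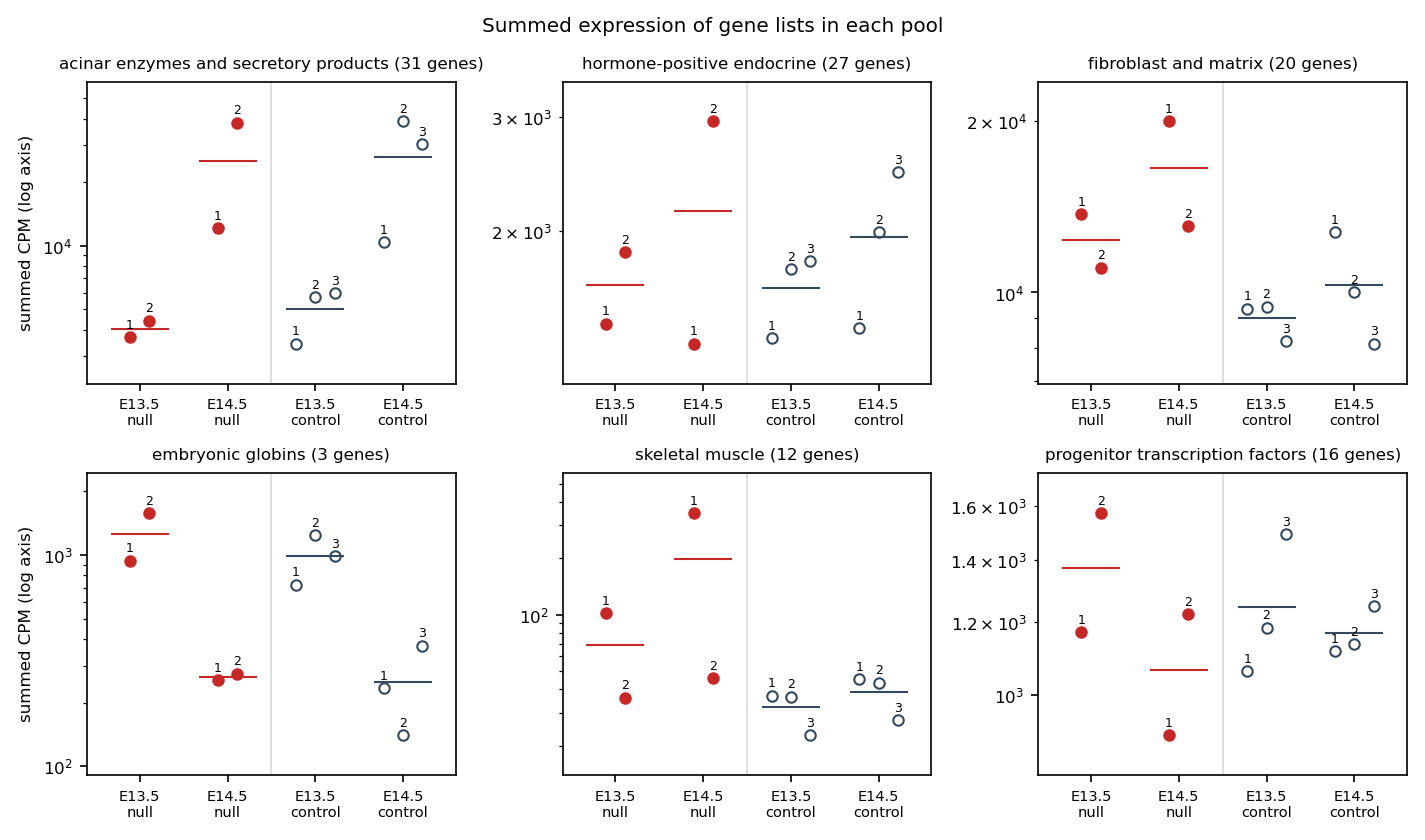
Each point is the summed CPM (log axis) of a gene list in 1 pool, labelled with its replicate number; red filled points are null-labelled pools, open points control pools, and bars group means. Acinar enzymes lie at 12140 and 38290 CPM in the E14.5 null-labelled pools, embryonic globins are lower in both than in either E13.5 pool, and skeletal muscle transcripts stand out at 348.7 CPM in E14.5 null pool 1.

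E14.5 null-labelled pool 1 also held more transcripts of skeletal muscle and of 3 gut genes than the other null-labelled pools. The 12 skeletal muscle genes tested summed to 102 and 36.2 CPM at E13.5 and to 349 and 45.8 CPM at E14.5. Myh8, a fetal muscle myosin, was at 8.94 and 2.84 CPM and then at 66.9 and 4.19 CPM; its log2 fold change of 2.60 was not called (adjusted p = 0.217 by edgeR). The intestinal regulators Cdx1 and Cdx2 stood at 5.02 and 3.79 CPM in E14.5 pool 1 and at or below 0.20 CPM in the other 3 null-labelled pools. Shh, an epithelial signal of gut, was at 3.40 CPM in that pool and at 0 in the other 3. These 3 genes were picked after their values were seen. The 8 stomach and intestine genes tested, which include Cdx1, summed to 22.3 and 22 CPM at E13.5 and to 42.4 and 45.4 CPM at E14.5, so the list as a whole did not set pool 1 apart: 4 of the 8 were higher in E14.5 pool 2, Barx1 and Vil1 among them. No gene of the skeletal muscle list (0 of 12), the stomach and intestine list (0 of 8), the gonad, adrenal and kidney list (0 of 7) or the lymphoid, mast and granulocyte list (0 of 11) was called. Liver transcripts, 0 of 13 called, summed to 501 and 466 CPM at E13.5 and to 575 and 521 CPM at E14.5, with Alb at 95.6, 53.7, 116 and 114 CPM in the same order. Their part in the stage changes was not tested. All 47 called genes kept their direction without E14.5 null-labelled pool 1, which the lack of overlap between the stages made near certain. That fit leaves 1 null-labelled pool at E14.5 and cannot show what part these transcripts had.

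Y-linked transcripts differed between the stages as well. Ddx3y, Kdm5d, Eif2s3y and Uty together had 1109 and 1942 counts in the E13.5 null-labelled pools, 365 in E14.5 pool 1 and 0 in E14.5 pool 2, where 0 counts allow up to 0.15 CPM. Xist, the transcript of the inactive X chromosome, was at 1746 and 769 CPM and then at 1324 and 1363 CPM. None of these 5 genes was called, with an adjusted p of 0.256 by edgeR for Ddx3y. The sex of the embryos in the small E14.5 pools and the stage cannot be told apart for these genes.

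The same day in control pancreas brought more calls, with 147 genes higher (0.778% of those tested) and 64 lower (0.339%) by edgeR in 3 against 3 pools. Of the 38 genes higher in null-labelled pools, 25 were also called higher in controls, which is 65.8% of the former and 17% of the latter. Of the 9 lower, 6 were shared, 66.7% of the former and 9.38% of the latter. The sign was the same in controls for 36 of the 38 and for all 9. The null-labelled and control comparisons share no library, but they share 1 estimate of spread. Across the 18898 genes the log2 fold changes of both had a Pearson r of 0.399, which describes genes and not replicates. The control count moved between 0 and 728 genes higher when single libraries were left out, with 0 without E13.5 or E14.5 control pool 2 and 728 without E14.5 control pool 1.

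Lists are set side by side for both genotypes. The acinar enzyme list had a median log2 fold change of 2.93 in null-labelled and 2.43 in control pools, with 3 and 17 of 31 genes called higher. The 3 embryonic globins had medians of -2.67 and -2.003, with 1 and 3 called lower. Hormone-positive genes had medians of 0.55 and 0.48, with 4 and 5 called higher. Ins2 reached 93.1, 264 and 263 CPM in the E14.5 control pools from 11 to 21 CPM at E13.5, and its log2 fold change there was 3.64 (SE 0.47, adjusted p = 0.012 by edgeR).

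**Figure D4:**
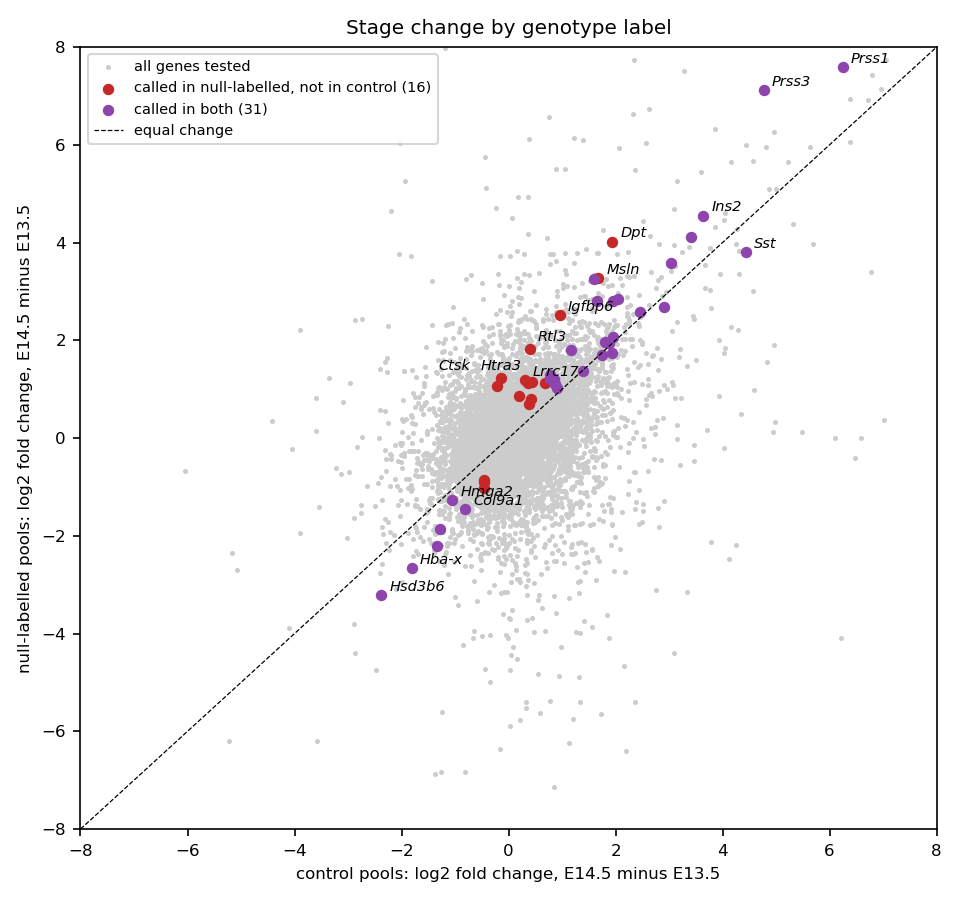
Each point is a gene, placed by its log2 fold change from E13.5 to E14.5 in control pools (x axis) and in null-labelled pools (y axis); the dashed line marks equal change, purple points were called in both and red points in the null-labelled pools but not in controls, and 1 gene lies outside the axes. Most called genes fall in the upper right or lower left, and Htra3 and Ctsk lie left of 0 on the control axis.

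Whether the day's change differed between genotypes was tested as an interaction, and no gene passed. By edgeR 0 genes were higher and 0 lower (0% of those tested), with 229 and 225 at an unadjusted p below 0.05, limma-voom also called 0 in each direction, and DESeq2 called 3 higher, Rtl3, Htra3 and Gm18194, and 0 lower. The smallest unadjusted p-values belonged to Htra3, Ctsk, Rtl3, Smoc2 and Nfam1, each with an adjusted p of 1 by edgeR. Htra3, a secreted serine protease, was at 27.1 and 22.3 CPM and then at 51 and 51.9 CPM in null-labelled pools, and at 42.2 to 49.3 CPM and then at 32.8 to 42.5 CPM in control pools. Ctsk, a protease that degrades collagen, was at 4.93 and 5.29 CPM and then at 12.1 and 11.7 CPM, against 15.3 to 17.1 CPM and then 13.9 to 15.6 CPM in controls. Both were called higher in null-labelled pools (adjusted p = 0.0262 and 0.0278 by edgeR) and not in controls, starting from levels below every control pool of E13.5. The difference between genotypes in log2 fold change was 1.28 for Htra3 (SE 0.21) and 1.36 for Ctsk (SE 0.25). Nfam1 differed in the other group: it was at 8.89 and 8.99 CPM and then at 9.10 and 5.84 CPM in null-labelled pools, and went from 28.9 to 42.8 CPM to 8.18 to 10.9 CPM in controls, where it was called lower.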

How the data were processed

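Poly(A) RNA of 10 pools of embryonic pancreas was sequenced. The authors deposited 1 table of raw read counts per gene; the submitters' processing notes name TopHat, HTSeq, DESeq2 and the mm10 build, while nothing used here gives the strand setting, the treatment of multiply mapped reads or the annotation release, and overlapping, antisense and near-identical genes are therefore uncertain. Of the 47 called genes, 10 overlap another tested gene in GENCODE M21. Of the gene names, 27 rows show a date. For the tests, edgeR 4.0.16 (R 4.3.3) was run on the raw counts: filterByExpr, TMM factors, a mean for each of 4 groups fitted over all 10 libraries, and quasi-likelihood F tests with Benjamini-Hochberg adjustment over all 18898 genes, which hold 99.91% of counts. CPM use TMM-scaled totals, and an SE is the log2 fold change divided by the root of F. The spread has 6 residual and 6.31 prior degrees of freedom. DESeq2 1.42.0 and limma 3.58.1 (voom) were alternatives. Replicates differed beyond sampling noise (chi-square per gene 11.2 to 43.9). The steps were also run on simulated counts, drawn independently for each gene and library. Those counts lack shifts shared by many genes within a pool, so they cannot show how the calls behave under such shifts.

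Named genes were 20 fixed genes, the 12 largest called changes per direction averaging 1 CPM or more without overlap of the stages, called members of each list by p (otherwise its 2 most abundant), and the 5 smallest interaction p-values; genes outside this rule, Ctrb1, Hbb-bh1, Cdx1, Cdx2, Shh and Gm18194 among them, were picked after their values were seen. Members and lists were chosen with earlier results of these data known.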

Additional observations from a re-analysis of the deposited data

How the results depend on the processing

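The direction of all 47 called genes was the same under every alternative. Their lack of overlap between the stages made that near certain, also when null-labelled pools were left out. The number of calls did change. For the null-labelled comparison (38 higher, 9 lower) DESeq2 called 380 and 164, limma-voom 21 higher, no low-count filter 609 and 279, a fit of only the groups compared 15 and 4, and the fit without both null-labelled libraries numbered 1, which leaves 1 per stage assumed to vary like the other groups, 15 higher. The fit without a low-count filter took an infinite prior degrees of freedom. Without the E14.5 libraries numbered 1, an alternative chosen after seeing the data, the counts were 507 and 327. Leaving out each library in turn gave 0 to 199 higher and 0 to 67 lower; with 0 calls, 933 and 739 genes had an unadjusted p below 0.05 by edgeR. The cause of these differences was not tested.

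For the control comparison (147 higher, 64 lower) DESeq2 called 600 and 392, limma-voom 31 and 26, no low-count filter 813 and 479, only the groups compared 231 and 99, without both null-labelled libraries numbered 1 278 and 119, without the E14.5 libraries numbered 1 1041 and 794, and leaving out each library 0 to 728 and 0 to 482. For the interaction (0 and 0) DESeq2 called 3 higher, no low-count filter 35 and 16, and without the E14.5 libraries numbered 1 the 4 lower genes were Kdm5d, Eif2s3y, Uty and Ddx3y.

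The labels number replicates alike in each group. In every group, control groups included, the library numbered 1 scored highest on the second principal component. It also had the most genes with counts in its group. These libraries numbered 1 had 24384 to 27402 such genes, all others 21655 to 23721. The cause of this pattern was not tested. Deviations of same-numbered libraries from their group means correlated at 0.12 in null-labelled pools. With 2 pools per stage the deviations mirror each other, so this is 1 value and not 2. In control pools the correlations were 0.3, 0.039 and 0.16. The main fit did not take the numbers to pair the libraries, and these correlations cannot decide whether they do. With the replicate number as a block the null-labelled counts were 583 and 313 and the control counts 841 and 546. RLE normalization, total counts and a stricter filter kept the null-labelled counts within 1.5 times. With 2 pools per stage, small changes were not detectable.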

Other observations

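Among the genes higher in both E14.5 null-labelled pools without being called, Cldn18, a tight-junction protein of stomach and lung epithelium, was at 0.643 and 0.387 CPM and then at 2.85 and 7.99 CPM, with a log2 fold change of 3.40 (SE 0.85, adjusted p = 0.122 by edgeR). Mafa, a beta cell transcription factor, was at 2.52 and 1.98 CPM and then at 8.15 and 17.9 CPM (log2 fold change 2.54, SE 0.58, adjusted p = 0.0952 by edgeR), and it was called higher in control pools. Slc2a2, the glucose transporter of beta cells and early pancreatic progenitors, was lower in both E14.5 pools, at 46 and 61.8 CPM and then at 17.5 and 33.6 CPM (log2 fold change -1.08, SE 0.29, adjusted p = 0.137 by edgeR). These 3 genes were picked after their values were seen.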
